A study of Mus musculus with 9 samples.

Results

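The genes described here make, sense, move, store and export cholesterol in the cell. They are 31 of the 27179 genes in the table of counts, chosen by name from the known pathway and found through their NCBI gene IDs, and all 31 passed the filter on low counts. Cholesterol is built from acetyl-CoA through mevalonate, isoprenoid units, squalene and lanosterol, mostly in the endoplasmic reticulum. When sterol is low, the retention proteins INSIG let go of SCAP, which escorts the transcription factor SREBP-2 to the Golgi to be cut free, and SREBP-2 then raises the enzymes of synthesis and the uptake of lipoproteins. High sterol yields oxysterols, which activate the LXR receptors and through them the ABC transporters that export cholesterol. In the mammary gland cholesterol goes into membranes and, in lactation, into the membrane that wraps milk fat.

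RNA was sequenced from 3 populations of luminal epithelial cells sorted from adult mouse mammary glands, with 3 libraries each, all gated as lineage negative. ML cells were CD14- and, by their sample labels, PR-cre/YFP+, although the series' design text calls them YFP negative. HR-positive LP cells (HR+ LP in the labels) were CD14+ PR-cre/YFP+, and HR-negative LP cells (HR- LP) were CD14+ PR-cre/YFP-. The labels do not spell out these abbreviations. No strain, exact age or treatment was given in the sources used here, nor whether libraries came from separate animals, so p-values measure only the spread between these libraries. A Cre reporter records past as well as present activity of its driver, so YFP is not a measure of the receptor's current level.

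Pgr, the progesterone receptor gene, averaged 435 ± 144 CPM in ML, 279 ± 65.8 in HR-positive LP and 9.42 ± 5.54 in HR-negative LP (SD, n = 3 each), so ML and HR-positive LP libraries both carried it, as the sample labels have it. Kit, a receptor of progenitor cells, averaged 7.46 ± 4.66 CPM in ML, 515 ± 47.7 in HR-positive LP and 1537 ± 227 in HR-negative LP. The summed level of 7 pan-luminal genes ran from 13526 to 16607 CPM in ML, 13193 to 17525 in HR-positive LP and 15062 to 17119 in HR-negative LP. Libraries held 27219103 to 108119756 counts, and every member had at least 13 counts in every library. On the second principal component, with 10.1% of the variance, HR-negative LP replicate 3 stood at -91.6, against 15.8 and 39.5 for the other libraries of its group. Levels are CPM after scaling of library sizes by TMM factors. In sorted bulk RNA, fewer cells with a transcript and less of it in each cell cannot be told apart.

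Most of the 31 genes differed between HR-negative LP and the other populations. In ML against HR-negative LP 15 members rose and 6 fell by edgeR's quasi-likelihood test with Benjamini-Hochberg adjustment over 15910 genes. That is 67.7% of the members, where 44.6% of all tested genes were called, 23.3% higher and 21.3% lower. Against the same cells 13 rose and 4 fell in HR-positive LP, which is 54.8% of the members, where 29.9% of all tested genes were called, 17.2% higher and 12.8% lower. The CPM of ML and HR-negative LP libraries did not overlap for 21 members, beside 53.1% of all tested genes, nor did those of the LP populations for 21 members, beside 43.9% of all tested genes. The median log2 fold change over the members was 0.46 in ML and 0.45 in HR-positive LP, each against HR-negative LP, beside 0.03 and 0.01 over all tested genes. Both comparisons share the HR-negative LP libraries, so their counts are not independent. The members were also chosen with earlier results of these data known, so the shares are descriptions. With scaling by library totals alone, the median of all genes was 0.19 in ML and 0.12 in HR-positive LP. That scaling called 16 members higher and 5 lower in ML, and 15 higher and 4 lower in HR-positive LP. The count of lower members in HR-positive LP was 2 when replicate 2 of either LP population was left out. Without HR-negative LP replicate 3, 14 members were higher and 5 lower in ML, and 12 higher and 5 lower in HR-positive LP. Over all genes compared between the LP populations library totals gave 3182 higher and 1535 lower genes, where TMM gave 2731 and 2033.

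Few of these genes were called between ML and HR-positive LP. In ML against HR-positive LP 2 members fell and 0 rose by edgeR, which is 6.45% of the members, where 6.79% of all tested genes were called, 0.0943% higher and 6.7% lower. The CPM of the 2 populations did not overlap for 10 members, beside 27% of all tested genes. At an unadjusted p below 0.05, 4 members were higher and 4 lower. DESeq2 called 2 members higher, Sc5d and Soat1, and limma voom 0. The genes that fell were Npc1 and Stard4, both movers of cholesterol within the cell. With the replicate number as a block 4 members fell, Abca1 and Mylip being the others. The reported fit did not pair libraries, and the labels do not say what a shared replicate number means. The count of lower members was 1 without HR-positive LP replicate 1, 2 or 3, or without ML replicate 2 or 3. It was 3 without HR-negative LP replicate 1 or 2. The count of higher members was 1, Sc5d, without HR-negative LP replicate 1 or 3.

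**Figure D1:**
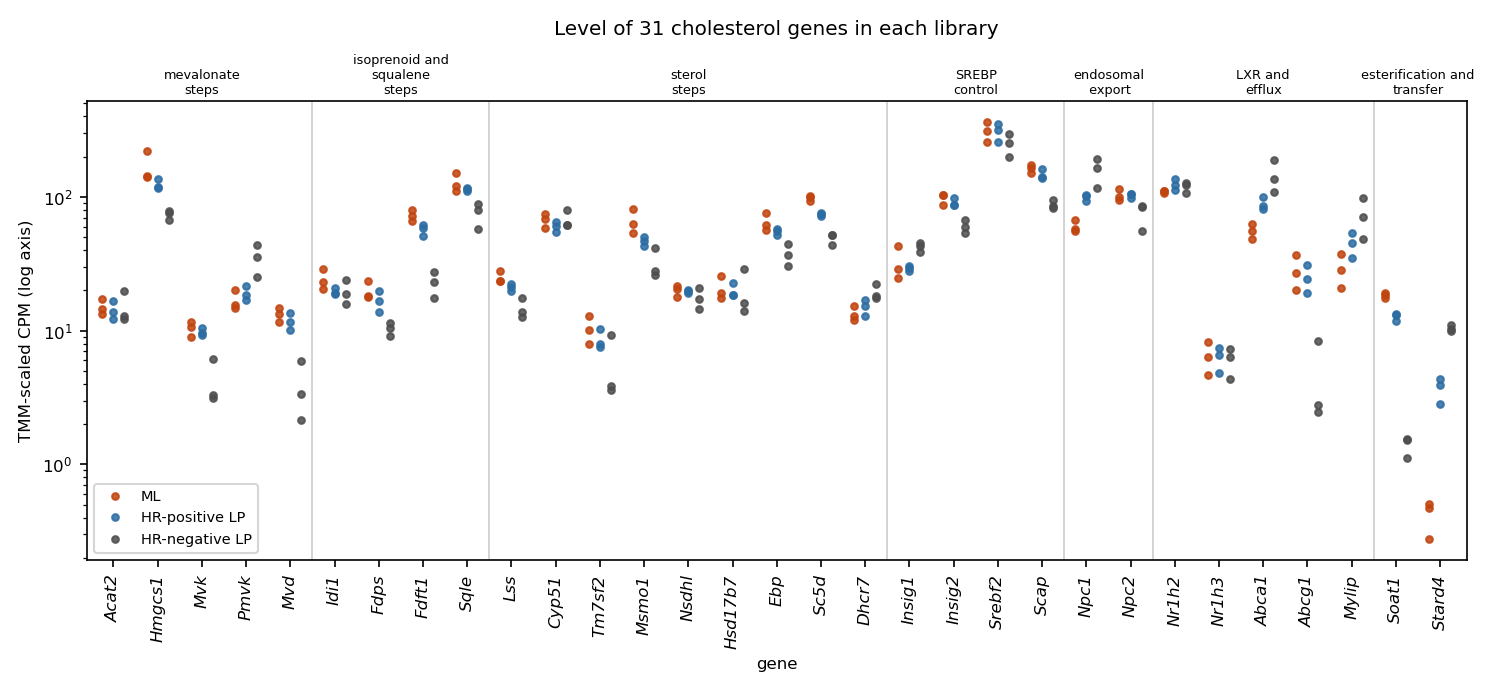
TMM-scaled CPM on a log axis for the 31 genes, ordered by role, with 1 point per library and 3 libraries for each of ML, HR-positive LP and HR-negative LP. Soat1 and Abcg1 lie lowest in HR-negative LP, while Stard4 lies lowest in ML, at 0.277 to 0.502 CPM.

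**Figure D2:**
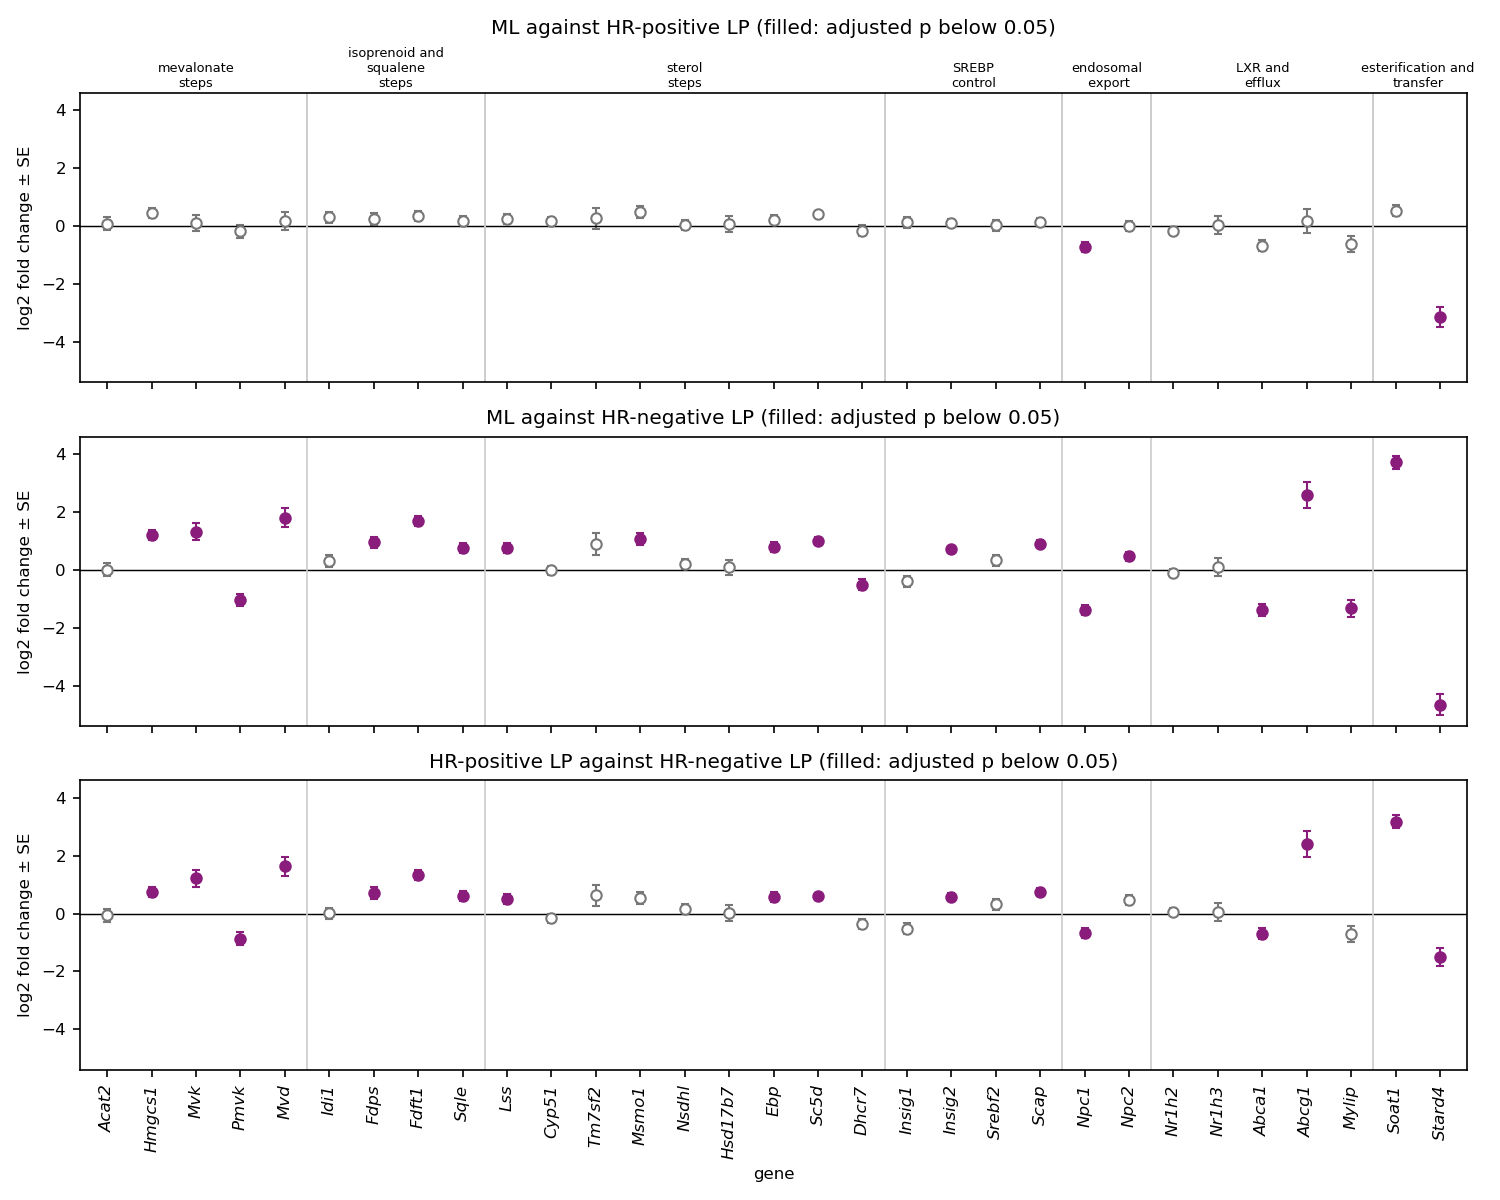
Log2 fold change and its SE for each gene in the 3 comparisons, with filled points for an adjusted p below 0.05. Filled points number 2 in ML against HR-positive LP, 21 in ML and 17 in HR-positive LP, the last pair each against HR-negative LP.

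Of the 5 genes for the steps up to isopentenyl diphosphate, 3 rose and 1 fell in ML and in HR-positive LP, each against HR-negative LP. That is 80% in each, where 44.6% and 29.9% of all tested genes were called. Hmgcs1 (gene ID 208715, chromosome 13, 119690351 to 119708260, mm10), which encodes the cytosolic HMG-CoA synthase, stood at 142, 221 and 144 CPM in ML and 119, 136 and 116 CPM in HR-positive LP, against 77.7, 67.2 and 76.0 CPM in HR-negative LP. All ML and HR-positive LP libraries lay above all HR-negative LP libraries, and ML replicate 2 was the highest. Of its exon bases in the GENCODE annotation 12.1% are shared with Gm48342, an antisense transcript, and the libraries do not keep the strand. The fitted log2 fold change was 1.20 (adjusted p = 0.000259, SE 0.18) in ML and 0.75 (adjusted p = 0.00904, SE 0.18) in HR-positive LP, each against HR-negative LP. Mvk (gene ID 17855, chromosome 5, 114444264 to 114460591), which encodes mevalonate kinase, was low throughout, at 10.6, 11.6 and 8.97 CPM in ML and 9.54, 9.21 and 10.4 CPM in HR-positive LP, against 6.14, 3.28 and 3.11 CPM in HR-negative LP. The HR-negative LP libraries were again the 3 lowest, and replicate 1 was the highest among them. On the log2 scale the fold change was 1.31 (adjusted p = 0.00343, SE 0.29) in ML and 1.22 (adjusted p = 0.00868, SE 0.29) in HR-positive LP.

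Mvd (gene ID 192156, chromosome 8, 122433596 to 122443422), whose enzyme removes the carboxyl group from mevalonate diphosphate, stood at 13.4, 14.7 and 11.6 CPM in ML and 10.2, 13.5 and 11.6 CPM in HR-positive LP, against 5.95, 2.16 and 3.33 CPM in HR-negative LP. No library of HR-negative LP reached the lowest of the other populations. It had the largest log2 fold change of the 18 synthesis enzymes in both comparisons, 1.80 (adjusted p = 0.00125, SE 0.34) in ML and 1.63 (adjusted p = 0.00419, SE 0.34) in HR-positive LP, each against HR-negative LP. Pmvk (gene ID 68603, chromosome 3, 89454541 to 89469014), which encodes phosphomevalonate kinase, the step between Mvk and Mvd, ran the other way. It stood at 20.0, 14.8 and 15.4 CPM in ML and 16.9, 21.6 and 18.6 CPM in HR-positive LP, against 25.0, 35.5 and 43.3 CPM in HR-negative LP, and the HR-negative LP libraries were the 3 highest. Its log2 fold change was -1.05 (adjusted p = 0.00248, SE 0.22) in ML and -0.86 (adjusted p = 0.0119, SE 0.22) in HR-positive LP. The call in HR-positive LP was lost without HR-positive LP replicate 1, and its adjusted p ran from 0.00113 to 0.0542 over all settings tried. Acat2, which encodes an acetoacetyl-CoA forming thiolase, was not called in any comparison, with 12.3 to 19.6 CPM over the 9 libraries. Of its 50-base windows 39.1% also occur in another gene, mainly Acat3, so its level is uncertain.

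Promoter sequence is shown for Hmgcs1, Mvk, Mvd and Sc5d, which rose against HR-negative LP in ML and in HR-positive LP, and for Pmvk, which fell. Each is the 250 bases before the annotated start, 5′ to 3′ on the gene's strand, from RefSeq on GRCm38.p6. For Mvk that start lies downstream of the gene start given above, 114444264, so its window runs slightly past the latter. Capitals mark matches on either strand to CCAAT, the box bound by NF-Y, and to TCACNCCAC, spelled after the sterol regulatory element that SREBP binds. The searched words did not overlap each other. Positions are chr13:119690101-119690350 on the plus strand for Hmgcs1, chr5:114444019-114444268 on the plus strand for Mvk and chr8:122443423-122443672 on the minus strand for Mvd. They are chr9:42264301-42264550 on the minus strand for Sc5d and chr3:89454291-89454540 on the plus strand for Pmvk.
Hmgcs1: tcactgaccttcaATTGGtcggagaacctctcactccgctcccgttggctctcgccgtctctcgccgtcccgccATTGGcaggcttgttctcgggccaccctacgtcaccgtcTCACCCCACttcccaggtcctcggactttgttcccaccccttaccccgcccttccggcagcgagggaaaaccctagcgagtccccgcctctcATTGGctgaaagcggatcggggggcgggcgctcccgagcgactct
Mvk: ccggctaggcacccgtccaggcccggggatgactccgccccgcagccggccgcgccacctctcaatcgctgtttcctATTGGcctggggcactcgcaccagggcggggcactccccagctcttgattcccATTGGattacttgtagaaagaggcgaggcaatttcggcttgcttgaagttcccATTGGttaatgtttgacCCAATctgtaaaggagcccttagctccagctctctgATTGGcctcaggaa
Mvd: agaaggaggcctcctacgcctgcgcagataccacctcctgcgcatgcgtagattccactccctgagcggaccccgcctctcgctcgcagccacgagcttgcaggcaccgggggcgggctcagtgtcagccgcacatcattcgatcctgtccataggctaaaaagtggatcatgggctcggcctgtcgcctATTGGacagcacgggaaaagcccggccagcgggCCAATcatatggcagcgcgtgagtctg
Sc5d: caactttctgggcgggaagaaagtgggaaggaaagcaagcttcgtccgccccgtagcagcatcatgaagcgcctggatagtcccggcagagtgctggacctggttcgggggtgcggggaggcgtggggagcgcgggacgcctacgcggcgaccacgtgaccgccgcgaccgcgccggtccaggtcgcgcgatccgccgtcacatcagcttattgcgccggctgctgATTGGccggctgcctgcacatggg
Pmvk: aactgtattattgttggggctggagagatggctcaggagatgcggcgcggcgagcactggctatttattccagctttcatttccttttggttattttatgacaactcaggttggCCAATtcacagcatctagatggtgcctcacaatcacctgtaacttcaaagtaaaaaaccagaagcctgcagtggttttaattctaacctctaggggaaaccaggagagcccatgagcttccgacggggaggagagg

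The RefSeq table held a promoter for 25 of the 31 members and for 15 of the 18 synthesis enzymes. CCAAT was found in 14 of those 15 enzymes, which is 93.3%, and in 6 of the 10 other members, which is 60%, beside 37.5% of the 27025 genes in the table. Mvk had 5 matches, the most of any member, the last of them 14 bases before the start. Pmvk had 1 match, 136 bases before the start. TCACNCCAC was found in 1 member, Hmgcs1, 137 bases before the start, and in 1.22% of all genes. A direct repeat of AGGTCA with 4 bases between, spelled after the element that LXR binds, was found in 0 members and in 4 of all genes. Only this exact spelling was searched. It is so rare that 0 among 25 promoters was likely for any genes, and looser spellings of the element may be present. A match describes these letters and is not a binding site.

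Of the 4 genes that turn isopentenyl diphosphate into squalene epoxide, 3 rose against HR-negative LP in ML and in HR-positive LP. The share called was 75% in each, beside 44.6% and 29.9% of all tested genes. Fdft1 (gene ID 14137, chromosome 14, 63145150 to 63181687), which encodes squalene synthase, the first step committed to sterols, stood at 72.1, 79.6 and 65.5 CPM in ML and 58.6, 62.0 and 50.99 CPM in HR-positive LP, against 27.6, 17.6 and 23.0 CPM in HR-negative LP. The populations did not overlap, with ML highest and HR-negative LP lowest. The fitted log2 fold change was 1.67 (adjusted p = 1.91e-05, SE 0.18) in ML and 1.33 (adjusted p = 0.000262, SE 0.18) in HR-positive LP, each against HR-negative LP, and 0.34 (adjusted p = 0.46, SE 0.17) in ML against HR-positive LP. In the GENCODE annotation Fdft1 shares 18.3% of its exon bases with Ctsb on the opposite strand. Reads from the shared bases cannot be told apart. The deposited length of Fdft1 is 2863 bases, and whether the counted exons include the shared bases was not tested. Ctsb averaged 769.9 ± 57.6 CPM in ML, 702 ± 68.9 in HR-positive LP and 500.2 ± 37.8 in HR-negative LP, with log2 fold changes of 0.62 in ML and 0.49 in HR-positive LP, each against HR-negative LP. Its part in the counts of Fdft1 was not tested.

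Fdps (gene ID 110196, chromosome 3, 89093588 to 89101967), which encodes farnesyl diphosphate synthase, stood at 18.1, 23.4 and 17.7 CPM in ML and 13.8, 19.9 and 16.7 CPM in HR-positive LP, against 10.5, 9.06 and 11.4 CPM in HR-negative LP. The HR-negative LP libraries were the 3 lowest. On the log2 scale the fold change was 0.94 (adjusted p = 0.00296, SE 0.20) in ML and 0.71 (adjusted p = 0.0217, SE 0.20) in HR-positive LP. The call in HR-positive LP was lost when HR-positive LP replicate 2 or 3 or HR-negative LP replicate 2 was left out, with adjusted p from 0.0106 to 0.105 over all settings. Of its 50-base windows 26.2% occur in another gene, including pseudogenes. Sqle (gene ID 20775, chromosome 15, 59315092 to 59331193), which encodes squalene epoxidase, a rate-setting oxygen-using step, was among the most abundant enzymes at 111, 151 and 121 CPM in ML and 109.9, 115 and 116 CPM in HR-positive LP, against 88.3, 57.9 and 79.4 CPM in HR-negative LP. Again the HR-negative LP libraries lay below all others. Its log2 fold change was 0.76 (adjusted p = 0.00416, SE 0.17) in ML and 0.59 (adjusted p = 0.0236, SE 0.17) in HR-positive LP. That second call was lost without any 1 of the HR-positive LP libraries or HR-negative LP replicate 2, with adjusted p from 0.00914 to 0.0725 over all settings. Idi1, the isopentenyl diphosphate isomerase gene, stood at 15.8 to 28.7 CPM over the 9 libraries and was not called in any comparison. Of its 50-base windows 25.3% occur in another gene.

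Of the 9 genes that turn squalene epoxide into cholesterol, 4 rose and 1 fell in ML, and 3 rose and 0 fell in HR-positive LP, each against HR-negative LP. These are 55.6% and 33.3% of the 9, where 44.6% and 29.9% of all tested genes were called. At an unadjusted p below 0.05, 0 were lower in HR-positive LP, and DESeq2 and limma voom called none of the 9 lower there. Sc5d (gene ID 235293, chromosome 9, 42251592 to 42264300), whose enzyme puts in the C5 double bond, stood at 92.8, 102 and 100.5 CPM in ML and 74.3, 76.1 and 72.5 CPM in HR-positive LP, against 52.0, 51.5 and 43.3 CPM in HR-negative LP. All 3 populations were apart from each other, and the spread within each was small. The fitted log2 fold change was 1.004 (adjusted p = 5.46e-05, SE 0.12) in ML and 0.60 (adjusted p = 0.00369, SE 0.12) in HR-positive LP, each against HR-negative LP. In ML against HR-positive LP it was 0.40 (adjusted p = 0.0849, SE 0.12), with adjusted p from 0.00513 to 0.321 over all settings and a call without HR-negative LP replicate 1 or 3. RLE factors, DESeq2 and the 2 groups alone called it there too (adjusted p = 0.0464, 0.00513 and 0.0146). Msmo1 (gene ID 66234, chromosome 8, 64718123 to 64733578), a C4 methylsterol oxidase gene, stood at 53.5, 81.5 and 62.4 CPM in ML and 43.1, 50.2 and 46.4 CPM in HR-positive LP, against 28.01, 25.9 and 41.8 CPM in HR-negative LP. It rose in ML against HR-negative LP, at a log2 fold change of 1.05 (adjusted p = 0.0019, SE 0.21), while HR-positive LP gave 0.55 (adjusted p = 0.0697, SE 0.21). Without HR-negative LP replicate 3 the second was called, at 0.79 (adjusted p = 0.00958, and 0.00958 to 0.195 over all settings). Library totals, limma voom and the replicate block also called it with no library left out (adjusted p = 0.0282, 0.0189 and 0.0477).

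Ebp (gene ID 13595, chromosome X, 8185329 to 8193512), which encodes a sterol isomerase, stood at 61.1, 75.4 and 56.5 CPM in ML and 57.8, 55.8 and 51.9 CPM in HR-positive LP, against 44.5, 37.0 and 30.6 CPM in HR-negative LP. HR-negative LP was lowest in all 3 libraries. On the log2 scale the fold change was 0.78 (adjusted p = 0.00276, SE 0.17) in ML and 0.56 (adjusted p = 0.0253, SE 0.17) in HR-positive LP, the second lost when HR-positive LP replicate 1 or 2 or HR-negative LP replicate 2 or 3 was left out (adjusted p 0.00714 to 0.0842 over all settings). Lss (gene ID 16987, chromosome 10, 76531565 to 76557139), which encodes lanosterol synthase, the enzyme that closes the sterol rings, stood at 23.3, 27.998 and 23.3 CPM in ML and 19.8, 22.2 and 21.1 CPM in HR-positive LP, against 13.8, 17.7 and 12.6 CPM in HR-negative LP. HR-negative LP was again below the other populations, with replicate 2 nearest to them. Its log2 fold change was 0.76 (adjusted p = 0.00431, SE 0.17) in ML, and 0.51 (adjusted p = 0.0438, SE 0.17) in HR-positive LP. The call in HR-positive LP was close to the threshold. It was lost without HR-negative LP replicate 1 or 3, any 1 of the HR-positive LP libraries or any 1 of the ML libraries (adjusted p 0.0157 to 0.138 over all settings). RLE factors, no filter on low counts, limma voom and the 2 groups alone lost it too.

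Dhcr7 (gene ID 13360, chromosome 7, 143823167 to 143848410), which encodes the reductase that yields cholesterol from 7-dehydrocholesterol, stood at 12.1, 15.4 and 13.0 CPM in ML and 15.3, 16.9 and 13.0 CPM in HR-positive LP, against 17.5, 18.2 and 22.2 CPM in HR-negative LP. ML libraries were below all HR-negative LP libraries. It fell in ML against HR-negative LP, at a log2 fold change of -0.52 (adjusted p = 0.0429, SE 0.19), a call lost on leaving out HR-negative LP replicate 2 or 3, any HR-positive LP library, or ML replicate 1 or 3 (adjusted p 0.0268 to 0.15 over all settings). Library totals, no filter on low counts, limma voom and the 2 groups alone lost that call too. HR-positive LP gave -0.36 (adjusted p = 0.177, SE 0.19) against HR-negative LP. Cyp51, Nsdhl, Hsd17b7 and Tm7sf2, which encode the lanosterol demethylase and later C4 and C14 enzymes, were not called in any comparison. Cyp51 stood at 54.3 to 80.0 CPM, Nsdhl at 14.4 to 21.5 CPM, Hsd17b7 at 14.1 to 28.9 CPM and Tm7sf2 at 3.58 to 12.8 CPM over the 9 libraries. Tm7sf2 was called without HR-negative LP replicate 1, at 1.47 in ML (adjusted p = 0.00186, and 0.00186 to 0.215 over all settings) and 1.21 in HR-positive LP (adjusted p = 0.00825, and 0.00825 to 0.482 over all settings). In ML it was also called by DESeq2, limma voom and the replicate block (adjusted p = 0.0486, 0.038 and 0.0126). It also shares 12.1% of its GENCODE exon bases with Vps51.

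Summed over the 18 synthesis enzymes, the level was 786, 993 and 779.7 CPM in ML and 684, 749.7 and 684 CPM in HR-positive LP, against 542, 474 and 548 CPM in HR-negative LP. The 3 populations did not overlap in this sum, which Hmgcs1 and Sqle weight most. The median log2 fold change of these enzymes was 0.77 in ML and 0.56 in HR-positive LP, each against HR-negative LP, and 0.20 in ML against HR-positive LP. In that last comparison edgeR called 0 of the 18, beside 6.79% of all tested genes, with 3 at an unadjusted p below 0.05. There limma voom called 0. DESeq2 called 1, Sc5d.

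Of the 4 genes that control SREBP or encode it, 2 rose in ML and in HR-positive LP, each against HR-negative LP. That is 50% in each, beside 44.6% and 29.9% of all tested genes. Scap (gene ID 235623, chromosome 9, 110333288 to 110384949), the escort of SREBP, stood at 164, 173 and 152 CPM in ML and 141, 161 and 139 CPM in HR-positive LP, against 82.2, 94.1 and 85.0 CPM in HR-negative LP. HR-negative LP libraries were below all others by a wide margin. Of its GENCODE exon bases 13.2% are shared with a transcript on the opposite strand. The fitted log2 fold change was 0.90 (adjusted p = 0.000139, SE 0.12) in ML and 0.75 (adjusted p = 0.00107, SE 0.12) in HR-positive LP. Insig2 (gene ID 72999, chromosome 1, 121304353 to 121332662), which encodes a retention protein that is not itself under strong SREBP control in most cells, stood at 104, 104 and 87.3 CPM in ML and 97.9, 87.5 and 86.3 CPM in HR-positive LP, against 67.6, 53.9 and 60.01 CPM in HR-negative LP. It was lowest in HR-negative LP, and its log2 fold change was 0.70 (adjusted p = 0.00146, SE 0.13) in ML and 0.58 (adjusted p = 0.00774, SE 0.13) in HR-positive LP. Insig1, its SREBP-induced relative, stood at 24.9, 42.8 and 29.0 CPM in ML and 27.96, 30.6 and 29.5 CPM in HR-positive LP, against 38.9, 45.2 and 42.9 CPM in HR-negative LP. All HR-positive LP libraries lay below the lowest of HR-negative LP, while ML replicate 2 was as high as HR-negative LP.

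Insig1 was not called, with a log2 fold change of -0.39 (adjusted p = 0.12, SE 0.19) in ML and -0.53 (adjusted p = 0.0584, SE 0.19) in HR-positive LP, each against HR-negative LP. Without ML replicate 2 it was called lower in both, at -0.67 (adjusted p = 0.0102, and 0.0102 to 0.371 over all settings) and -0.55 (adjusted p = 0.0197, and 0.0197 to 0.163 over all settings). Without ML replicate 1 HR-positive LP was called as well. With no library left out, DESeq2, limma voom and RLE factors called it lower there too (adjusted p = 0.0246, 0.0251 and 0.0411). The replicate block, a filter on CPM and the 2 groups alone did so as well (adjusted p = 0.0264, 0.0413 and 0.0305). In ML the replicate block called it lower, at -0.42 (adjusted p = 0.0494). Srebf2, the gene of SREBP-2 itself, had the highest CPM of the members, at 259, 363 and 313 CPM in ML and 256, 351 and 316 CPM in HR-positive LP, against 198, 253 and 294 CPM in HR-negative LP. The populations overlapped, and it was not called in any comparison, with a log2 fold change of 0.33 (adjusted p = 0.183, SE 0.19) in ML and 0.31 (adjusted p = 0.246, SE 0.19) in HR-positive LP. Library totals (adjusted p = 0.031) and the replicate block (adjusted p = 0.0378) called it higher in ML.

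Npc1 and Npc2, whose proteins hand cholesterol from one to the other on its way out of late endosomes and lysosomes, went opposite ways in ML against HR-negative LP. Npc1 (gene ID 18145, chromosome 18, 12189694 to 12236506), the membrane protein, stood at 66.9, 55.4 and 57.0 CPM in ML and 102, 93.1 and 101 CPM in HR-positive LP, against 117, 192 and 163 CPM in HR-negative LP. The 3 populations were apart, with ML lowest. It fell in ML, at a log2 fold change of -1.40 (adjusted p = 7.4e-05, SE 0.18) and in HR-positive LP at -0.67 (adjusted p = 0.0138, SE 0.17) against HR-negative LP, and in ML at -0.72 (adjusted p = 0.0278, SE 0.17) against HR-positive LP. The call in HR-positive LP was lost when replicate 2 of either LP population was left out (adjusted p 0.000922 to 0.0628 over all settings). The call in ML against HR-positive LP was lost without any 1 of the HR-positive LP libraries or without ML replicate 2 or 3 (adjusted p 0.00225 to 0.142 over all settings). Npc2 (gene ID 67963, chromosome 12, 84754559 to 84773112), the soluble partner, stood at 115, 99.8 and 95.2 CPM in ML and 104, 105 and 98.7 CPM in HR-positive LP, against 84.4, 85.2 and 55.4 CPM in HR-negative LP. HR-negative LP replicate 3 was the lowest library. Npc2 rose in ML, at a log2 fold change of 0.46 (adjusted p = 0.0447, SE 0.17), and 0.29 without that library (adjusted p = 0.0964, and 0.0137 to 0.152 over all settings). The call was lost without any 1 of the HR-positive LP or ML libraries too. No filter on low counts and the 2 groups alone lost it as well. HR-positive LP gave 0.45 (adjusted p = 0.0642, SE 0.17), called when HR-negative LP replicate 1 was dropped (adjusted p = 0.0378, and 0.0221 to 0.162 over all settings). It was called there by library totals, limma voom and the replicate block too (adjusted p = 0.0338, 0.0425 and 0.0221).

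The exporters Abca1 and Abcg1, both classical LXR targets, were also opposite. Abca1 (gene ID 11303, chromosome 4, 53030789 to 53159988), which loads lipid-poor apolipoprotein, stood at 55.8, 62.2 and 48.2 CPM in ML and 100.01, 85.6 and 81.5 CPM in HR-positive LP, against 109, 188 and 137 CPM in HR-negative LP. The populations were apart, with HR-negative LP highest. It fell in ML, at a log2 fold change of -1.39 (adjusted p = 0.000178, SE 0.20) and in HR-positive LP at -0.70 (adjusted p = 0.019, SE 0.19) against HR-negative LP. Without HR-negative LP replicate 2 the second was -0.46 and not called, nor was it called without HR-positive LP replicate 2 or 3 (adjusted p 0.00215 to 0.0748 over all settings). In ML against HR-positive LP it was -0.68 (adjusted p = 0.0673, SE 0.19), and -0.70 with the replicate block (adjusted p = 0.0357, and 0.00755 to 0.265 over all settings). It was called there without HR-negative LP replicate 1 or 2 too. DESeq2 (adjusted p = 0.0314) and the 2 groups alone (adjusted p = 0.00755) also called it.

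Abcg1 (gene ID 11307, chromosome 17, 31057694 to 31117984), which loads mature high-density lipoprotein, stood at 26.8, 37.0 and 20.0 CPM in ML and 24.3, 30.7 and 19.0 CPM in HR-positive LP, against 2.76, 8.40 and 2.47 CPM in HR-negative LP. ML and HR-positive LP overlapped each other and lay above HR-negative LP, of which replicate 2 was the highest. On the log2 scale the fold change was 2.59 (adjusted p = 0.000697, SE 0.45) in ML and 2.41 (adjusted p = 0.00214, SE 0.44) in HR-positive LP. Mylip (gene ID 218203, chromosome 13, 45389742 to 45411940), an LXR target whose ligase degrades lipoprotein receptors, stood at 37.4, 28.4 and 20.7 CPM in ML and 53.6, 45.5 and 34.7 CPM in HR-positive LP, against 98.8, 70.1 and 48.8 CPM in HR-negative LP. The ML libraries were below all HR-negative LP libraries, and replicate 1 was the highest of each population. Mylip fell in ML, at a log2 fold change of -1.33 (adjusted p = 0.00281, SE 0.28) against HR-negative LP. HR-positive LP gave -0.70 (adjusted p = 0.0816, SE 0.28), called when HR-negative LP replicate 3 was dropped (adjusted p = 0.0243, and 0.00232 to 0.255 over all settings). With no library dropped, DESeq2, limma voom and the replicate block also called it lower there (adjusted p = 0.0302, 0.0398 and 0.00232). ML against HR-positive LP gave -0.63 (adjusted p = 0.356, SE 0.28), and -0.65 with the replicate block (adjusted p = 0.0071, and 0.0071 to 0.746 over all settings).

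The LXR genes themselves were not called in any comparison. Nr1h2, which encodes LXR beta, stood at 111, 111 and 107 CPM in ML and 122, 137 and 113 CPM in HR-positive LP, against 122, 127 and 106 CPM in HR-negative LP. Nr1h3, which encodes LXR alpha, stood at 8.27, 6.38 and 4.64 CPM in ML and 7.44, 6.61 and 4.83 CPM in HR-positive LP, against 7.31, 6.33 and 4.33 CPM in HR-negative LP, and its 3 populations covered nearly the same range. Macrophages are rich in these exporters, so their markers were looked at beside them. The summed level of 10 macrophage genes was 3.75 to 4.57 CPM in ML, 5.93 to 7.81 in HR-positive LP and 9.59 to 13.3 in HR-negative LP. Of the 10, 7 were under 1 CPM in every library, and Adgre1 was at 0 in all HR-negative LP libraries. Cd68, a lysosomal protein gene, made up most of the sum, at 2.38 ± 0.246 CPM in ML, 4.82 ± 0.6997 in HR-positive LP and 10.2 ± 1.40 in HR-negative LP. Itgam went the other way, at 0.636, 1.34 and 1.08 CPM in ML and 0.648, 0.809 and 1.07 CPM in HR-positive LP, against 0.000, 0.000 and 0.000 CPM in HR-negative LP. C1qa, C1qb, Mrc1, Fcgr1, Ptprc and Tyrobp averaged highest in HR-negative LP, with C1qa at 0.410 and C1qb at 0.428 CPM there. Csf1r averaged highest in ML. The part of such cells in Abca1 was not tested. The summed level of 5 adipocyte genes was 1.06 to 4.003 CPM in ML, 0.607 to 5.06 in HR-positive LP and 1.25 to 5.22 in HR-negative LP.

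In ML against HR-negative LP the largest log2 fold changes among the members were those of Soat1 and Stard4. Soat1 (gene ID 20652, chromosome 1, 156428108 to 156474328), whose enzyme esterifies cholesterol for storage in droplets, stood at 18.4, 17.6 and 19.2 CPM in ML and 13.0, 11.8 and 13.4 CPM in HR-positive LP, against 1.51, 1.56 and 1.11 CPM in HR-negative LP. All 3 populations were apart. Its log2 fold change was 3.71 (adjusted p = 2.84e-07, SE 0.22) in ML and 3.18 (adjusted p = 4.21e-06, SE 0.21) in HR-positive LP, each against HR-negative LP, or 13.1-fold and 9.04-fold. ML against HR-positive LP gave 0.53 (adjusted p = 0.198, SE 0.19, and 0.0327 to 0.546 over all settings). DESeq2 (adjusted p = 0.0404) and the 2 groups alone (adjusted p = 0.0327) called it higher there. Stard4 (gene ID 170459, chromosome 18, 33199138 to 33213862), which encodes a soluble carrier of sterol between membranes, stood at 0.502, 0.277 and 0.471 CPM in ML and 4.32, 3.89 and 2.85 CPM in HR-positive LP, against 9.99, 11.02 and 10.3 CPM in HR-negative LP. It was lowest in ML and highest in HR-negative LP, with no overlap. It fell in ML, at a log2 fold change of -4.66 (adjusted p = 1.85e-06, SE 0.36) and in HR-positive LP at -1.50 (adjusted p = 0.00384, SE 0.30) against HR-negative LP, and in ML at -3.16 (adjusted p = 9.94e-05, SE 0.34) against HR-positive LP. Stard4 is induced by SREBP-2 in many cells, yet its direction was the reverse of Hmgcs1, Fdft1 and Sc5d.

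**Figure D3:**
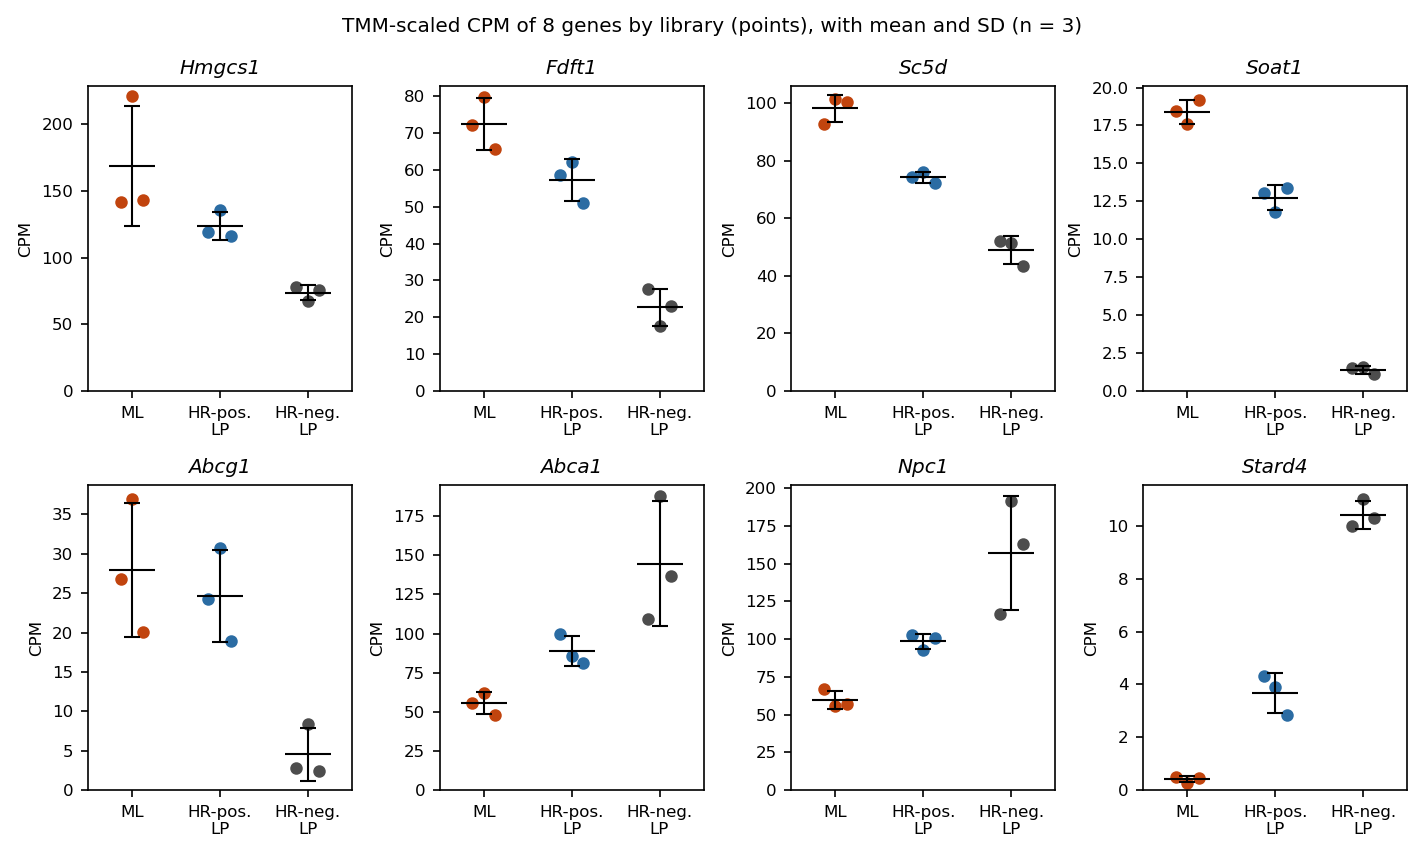
TMM-scaled CPM of 8 genes, with 1 point per library, the mean and the SD over 3 libraries. Hmgcs1, Fdft1, Sc5d, Soat1 and Abcg1 lie lowest in HR-negative LP, and Abca1, Npc1 and Stard4 lie highest there.

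Levels of different genes were compared as CPM per kilobase, with the gene lengths in the deposited table. Per length, Srebf2 and Nr1h2 were the most abundant members in all 3 populations, at 68.2 ± 11.3 and 55.9 ± 1.11 in ML, 67.4 ± 10.6 and 63.2 ± 6.10 in HR-positive LP, and 54.3 ± 10.6 and 60.3 ± 5.52 in HR-negative LP (SD, n = 3). The means of this pair lay within each other's spread in HR-positive LP, and in the other populations their mean ± SD ranges overlapped. Hmgcs1 and Sqle followed in ML, at 51.4 ± 13.8 and 46.4 ± 7.61, and Npc1 came next in HR-negative LP, at 30.2 ± 7.26. The lowest members were Stard4 in ML, at 0.140 ± 0.0410, and in HR-positive LP, at 1.23 ± 0.253, and Soat1 in HR-negative LP, at 0.291 ± 0.0515.

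Genes with related roles were set side by side as ratios of their levels per length. The per-length ratio of Abca1 to Abcg1 was 1.18, 0.955 and 1.36 in ML and 2.34, 1.58 and 2.44 in HR-positive LP, against 22.4, 12.7 and 31.5 in HR-negative LP. HR-negative LP libraries therefore held mostly Abca1 of the pair, while ML libraries held similar amounts of both. The ratio of Insig1 to Insig2 was 0.229, 0.393 and 0.316 in ML and 0.272, 0.334 and 0.326 in HR-positive LP, against 0.549, 0.799 and 0.681 in HR-negative LP. That of Npc1 to Npc2 was 0.364, 0.348 and 0.375 in ML and 0.614, 0.554 and 0.638 in HR-positive LP, against 0.867, 1.41 and 1.85 in HR-negative LP. Nr1h2 exceeded Nr1h3 by 14.0 to 24.0 times in ML, 17.0 to 24.3 times in HR-positive LP and 17.3 to 25.4 times in HR-negative LP, with no separation of the populations. The ratios are given as descriptions, with no test.

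**Figure D4:**
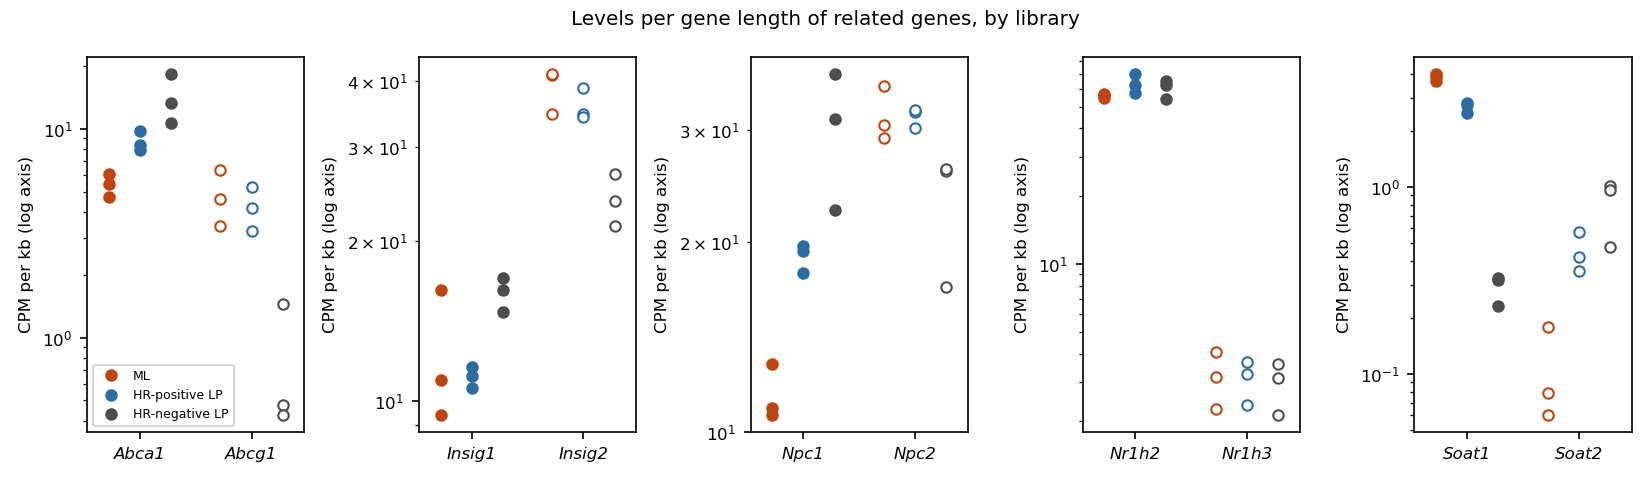
CPM per kilobase on log axes for pairs of genes with related roles, with 1 point per library, filled for the first gene and open for the second. The Abca1 and Abcg1 points lie together in ML and far apart in HR-negative LP, while Nr1h2 lies above Nr1h3 by a like distance in every population.

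A further 54 genes around the pathway were grouped in 5 lists, with Srebf1 in both the SREBP and the LXR list, and 51 of them passed the filter. In ML against HR-negative LP 9 rose and 9 fell, which is 35.3% of those tested, where 44.6% of all tested genes were called. In HR-positive LP 8 rose and 8 fell, or 31.4%, where 29.9% of all tested genes were called. In ML against HR-positive LP 5 fell and edgeR called 0 higher, or 9.80%, with 1 higher at an unadjusted p below 0.05, where 6.79% of all tested genes were called. Their median log2 fold change was 0.05 in ML and 0.02 in HR-positive LP, each against HR-negative LP, and 0.01 in ML against HR-positive LP.

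Nus1, which encodes a subunit of the dolichol-making transferase, averaged 63.5 ± 5.50 CPM in ML, 104 ± 23.7 in HR-positive LP and 217 ± 63.1 in HR-negative LP and fell in ML and in HR-positive LP, each against HR-negative LP, at a log2 fold change of -1.78 (adjusted p = 6.29e-05, SE 0.22) and -1.07 (adjusted p = 0.00369, SE 0.21). Of 10 genes of SREBP processing and sterol-regulated degradation, 2 rose in ML and 1 in HR-positive LP. These are 20% and 10% of the list, where 44.6% and 29.9% of all tested genes were called. Rnf145, a sterol-responsive ubiquitin ligase gene, averaged 154 ± 37.9 CPM in ML, 134 ± 21.8 in HR-positive LP and 65.4 ± 3.54 in HR-negative LP, and Erlin1, an endoplasmic reticulum scaffold gene, 67.4 ± 8.68 CPM in ML, 55.0 ± 5.21 in HR-positive LP and 38.5 ± 9.88 in HR-negative LP. Rnf145 rose in both comparisons and Erlin1 in ML, with a log2 fold change of 0.52 (adjusted p = 0.0564, SE 0.18) in HR-positive LP and a call there without HR-negative LP replicate 3. Library totals, limma voom and the replicate block called Erlin1 there too (adjusted p = 0.0205, 0.0164 and 0.039).

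Of 10 genes of lipoprotein uptake and lysosomal release, 3 rose and 2 fell in ML and in HR-positive LP, each against HR-negative LP. That is 50% in each, where 44.6% and 29.9% of all tested genes were called. Lipa (gene ID 16889, chromosome 19, 34492316 to 34527474), which encodes the lysosomal acid lipase that frees cholesterol from lipoprotein esters, stood at 17.4, 6.62 and 8.41 CPM in ML and 87.5, 71.0 and 61.6 CPM in HR-positive LP, against 238, 234 and 211 CPM in HR-negative LP. It was highest in HR-negative LP and lowest in ML, with no overlap. It fell, at a log2 fold change of -4.41 (adjusted p = 1.55e-06, SE 0.33) in ML and -1.64 (adjusted p = 0.00192, SE 0.29) in HR-positive LP, each against HR-negative LP, and at -2.77 (adjusted p = 0.000123, SE 0.31) in ML against HR-positive LP. Vldlr (gene ID 22359, chromosome 19, 27216480 to 27254231), a lipoprotein receptor gene, had the same order, at 0.837, 0.213 and 0.706 CPM in ML and 9.11, 5.60 and 5.96 CPM in HR-positive LP, against 25.2, 20.5 and 14.7 CPM in HR-negative LP. It fell, at a log2 fold change of -5.14 (adjusted p = 6.45e-06, SE 0.47) in ML and -1.55 (adjusted p = 0.0117, SE 0.39) in HR-positive LP, the second lost when HR-positive LP replicate 2 was dropped (adjusted p 0.000242 to 0.0581 over all settings), and at -3.59 (adjusted p = 0.000283, SE 0.45) in ML against HR-positive LP. Lrp1, an endocytic receptor gene, rose, with means of 58.1 ± 7.67 CPM in ML, 45.0 ± 2.47 in HR-positive LP and 10.4 ± 7.90 in HR-negative LP. Fibroblasts express Lrp1, and the summed level of 6 fibroblast genes was 106 to 318 CPM in ML, 61.3 to 268 in HR-positive LP and 73.7 to 121 in HR-negative LP. Dcn, at 153 ± 128 CPM in ML, 129 ± 109 in HR-positive LP and 8.94 ± 2.14 in HR-negative LP, was the 1 of the 6 that rose in ML and in HR-positive LP. The other 5 averaged highest in HR-negative LP, such as Col3a1 at 12.1 ± 4.39 CPM in ML, 5.82 ± 3.90 in HR-positive LP and 38.7 ± 11.8 in HR-negative LP, and against it all 5 fell in HR-positive LP and 3 fell in ML. The part of such cells in Lrp1 was not tested. Stard3, a late endosomal sterol carrier gene, rose, with means of 60.3 ± 0.363 CPM in ML, 53.7 ± 3.57 in HR-positive LP and 28.9 ± 7.02 in HR-negative LP.

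Of 14 partners and targets of LXR 12 were tested, and 2 rose and 4 fell in ML and in HR-positive LP, each against HR-negative LP. The share called was 50% in each, beside 44.6% and 29.9% of all tested genes. Apoe (gene ID 11816, chromosome 7, 19696244 to 19701310), an LXR target that carries exported cholesterol, stood at 7.27, 5.49 and 7.44 CPM in ML and 39.6, 79.2 and 75.3 CPM in HR-positive LP, against 162, 278 and 203 CPM in HR-negative LP. Every ML library lay below every HR-positive LP library, and these below every HR-negative LP library. It fell, at a log2 fold change of -5.00 (adjusted p = 4.71e-07, SE 0.32) in ML and -1.73 (adjusted p = 0.000866, SE 0.27) in HR-positive LP, each against HR-negative LP, and at -3.27 (adjusted p = 2.39e-05, SE 0.30) in ML against HR-positive LP. Macrophages also make much Apoe. Their summed markers, mostly Cd68, were highest in HR-negative LP, at no more than 13.3 CPM. C1qa and C1qb averaged highest there too, while Itgam and Adgre1 were at 0 there. The part of macrophages in Apoe was not tested. Lpcat3, an LXR target that remodels phospholipids, had the reverse direction, with means of 144 ± 5.40 CPM in ML, 115 ± 4.19 in HR-positive LP and 46.3 ± 6.37 in HR-negative LP. Smpdl3a, an LXR target in human macrophages, averaged 13.6 ± 4.58 CPM in ML, 33.8 ± 2.08 in HR-positive LP and 83.6 ± 12.6 in HR-negative LP, and the coactivator gene Ncoa1 51.6 ± 3.15 CPM in ML, 81.9 ± 3.64 in HR-positive LP and 134 ± 25.3 in HR-negative LP. Both fell in all 3 comparisons, Ncoa1 in ML against HR-positive LP, at a log2 fold change of -0.67 (adjusted p = 0.0169, SE 0.15), a call lost without any 1 of the HR-positive LP libraries or without ML replicate 2 or 3 (adjusted p 0.00175 to 0.0952 over all settings).

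Of 12 genes of oxysterol making, esterification and sterol transfer, 11 were tested, and 1 rose and 2 fell in ML, and 1 rose and 1 fell in HR-positive LP, each against HR-negative LP. These are 27.3% and 18.2% of those tested, where 44.6% and 29.9% of all tested genes were called. Soat2, the second esterifying enzyme, was near its limit of detection, with means of 0.224 ± 0.134 CPM in ML, 0.955 ± 0.235 in HR-positive LP and 1.74 ± 0.632 in HR-negative LP. It fell in ML against HR-negative LP, at a log2 fold change of -2.94 (adjusted p = 0.0068, SE 0.73), opposite to Soat1. The per-length ratio of Soat1 to Soat2 was 48.9, 61.3 and 22.6 in ML and 7.69, 4.33 and 6.62 in HR-positive LP, against 0.666, 0.320 and 0.242 in HR-negative LP, so the order of both genes differed between populations. Stard5, a sterol carrier gene of the same family as Stard4, averaged 8.26 ± 1.68 CPM in ML, 12.6 ± 1.84 in HR-positive LP and 22.5 ± 3.59 in HR-negative LP, and fell, at a log2 fold change of -1.45 (adjusted p = 0.000268, SE 0.22) in ML and -0.83 (adjusted p = 0.0133, SE 0.21) in HR-positive LP, the second lost when HR-positive LP replicate 2 was dropped (adjusted p 0.000719 to 0.0682 over all settings). Gramd1a, which encodes a carrier of cholesterol from the plasma membrane, averaged 101 ± 7.53 CPM in ML, 99.3 ± 7.25 in HR-positive LP and 74.8 ± 7.54 in HR-negative LP and rose in both, at a log2 fold change of 0.44 (adjusted p = 0.0168, SE 0.13) and 0.41 (adjusted p = 0.0332, SE 0.13). The first was lost without ML replicate 1 (adjusted p 0.0049 to 0.0705 over all settings), and the second without HR-negative LP replicate 3, any 1 of the HR-positive LP libraries, or ML replicate 2 or 3 (adjusted p 0.0149 to 0.132 over all settings). The second was also lost with the 2 groups alone.

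**Figure D5:**
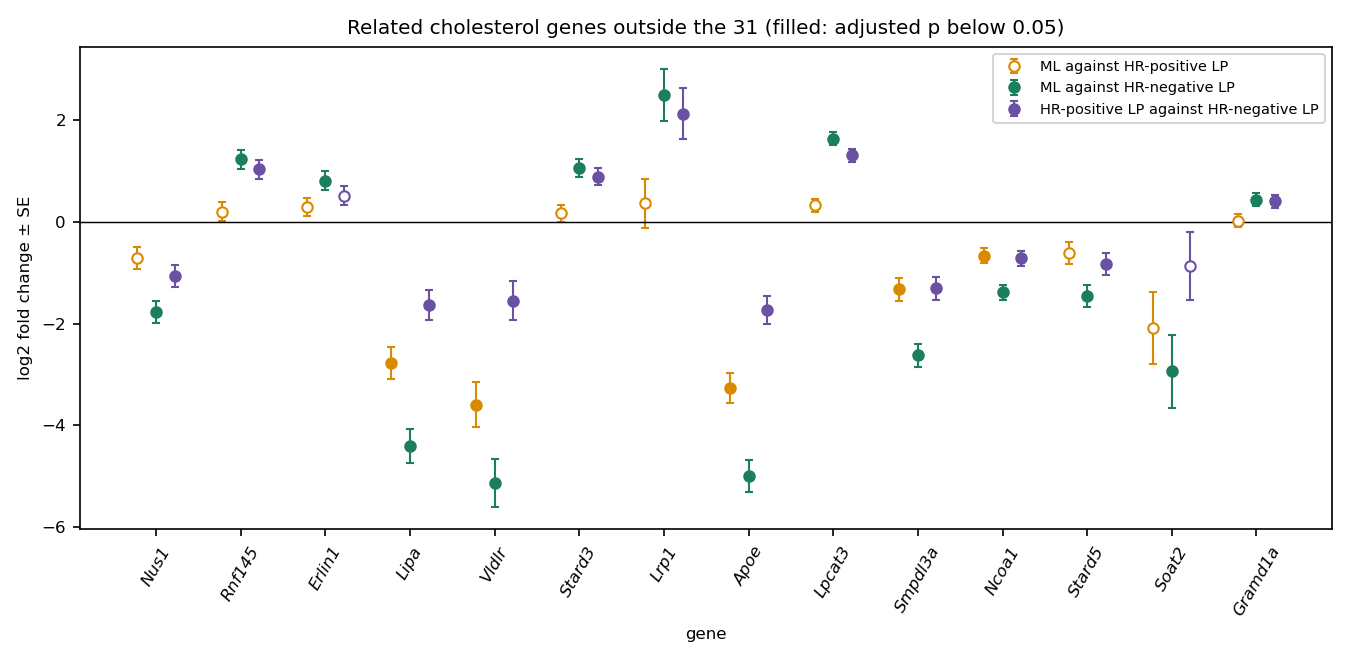
Log2 fold change and its SE for 14 named genes outside the 31 in the 3 comparisons, with filled points for an adjusted p below 0.05. Lrp1 lies highest in ML against HR-negative LP, and Vldlr, Apoe and Lipa lie lowest, at -5.14, -5.00 and -4.41 in the same comparison.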

How the data were processed

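Per the labels' protocols, sorted cells gave RNA by miRNeasy with DNase, and 50 ng or more went into TruSeq v2 libraries. That kit does not keep the strand. The authors deposited whole-number counts per gene, made with featureCounts on mm10, per the submitters' processing notes. The aligner, annotation and treatment of multiply mapped reads are not given in the sources used here. Shares of exon bases and of 50-base windows were taken from the GENCODE annotation, whose exons can differ from those counted. Of 27179 gene IDs, 25275 were matched to symbols of RefSeq on GRCm38.p6. The 31 members and the 54 related genes were chosen with earlier results of these data known. Related genes were named by rule, up to 4 per list with the smallest p among those called. Some results for these genes are not reported here.

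From the deposited counts, genes were filtered with filterByExpr, scaled by TMM and tested with edgeR 4.0.16 (glmQLFit, glmQLFTest) over all 9 libraries, with Benjamini-Hochberg adjustment over 15910 genes and a threshold of 0.05. The scripts were tested on simulated data. SE is the log2 fold change divided by the root of F. Alternatives used DESeq2 1.42.0, limma 3.58.1 (voom), RLE factors, library totals, other filters, the 2 groups alone, the replicate number as a block, and each library left out in turn. Same-numbered ML and HR-positive LP libraries deviated together (correlations of deviations 0.183, 0.121 and 0.189). The reported fit did not pair them, and any pairing by number comes from the data and not from the labels. Depth was 27219103 to 108119756 counts per library.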

Additional observations from a re-analysis of the deposited data

How the results depend on the processing

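Of the log2 fold changes of the 31 members over all alternatives, 1485 values neither gained nor lost a call, 42 gained one and 54 lost one. No called value changed sign, but uncalled values near 0 did, such as those of Acat2, Idi1, Hsd17b7 and Nr1h3. For the related genes chosen by rule the numbers were 741, 9 and 15. In ML against HR-positive LP the count of higher members, 0 as reported, was 1 with RLE factors, 2 with DESeq2 and 2 with only the 2 groups compared. It ran from 0 to 1 when each library was left out in turn, and the count of lower members from 1 to 3. Leaving out a library gave 14 to 16 higher and 5 to 7 lower members in ML against HR-negative LP, and 9 to 14 higher and 2 to 5 lower members in HR-positive LP. Over all genes it gave 5633 to 7658 calls in ML and 3193 to 5512 in HR-positive LP, each against HR-negative LP, and 808 to 1238 in ML against HR-positive LP. The cause was not tested. Fewer libraries entered each such fit, and the filter kept 16331 to 16606 genes, where it kept 15910 in the reported fit. Without HR-negative LP replicate 1 both counts against HR-negative LP exceeded those of the reported fit, 7089 in ML and 4764 in HR-positive LP.

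With the replicate block 4 members were lower in ML against HR-positive LP. The labels do not link same-numbered libraries of any populations. Same-numbered HR-negative LP libraries had correlations of deviations of 0.0526, 0.0254 and 0.0849 to ML and 0.133, 0.0389 and 0.147 to HR-positive LP. Those of ML to HR-positive LP were 0.183, 0.121 and 0.189, which overlap the values between the LP populations. Against HR-negative LP the replicate block gave 17 higher and 7 lower members in ML and 15 higher and 6 lower in HR-positive LP. Over all genes it called 7609 genes in ML and 5463 in HR-positive LP, each against HR-negative LP, and 1324 in ML against HR-positive LP. The lowest count of any member in a library was 13, for Stard4 in ML, so that gene's fold changes in ML rest on few counts. Between the LP populations the lowest count was 31, for Soat1 in HR-negative LP.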
